A study of Mus musculus with 16 samples.

Results

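The 9 genes described here are a pair of peroxisome proliferator-activated receptors, Ppara and Ppard, and 7 genes known as their targets in fatty acid handling: Angptl4, Pdk4, Cpt1a, Ehhadh, Acadvl, Plin2 and Hadha. They were taken by name, as PPAR genes and known lipid targets, from 55335 genes counted in 16 mouse libraries. All 9 passed the filter on low counts that left 19764 genes for testing. The libraries come from oligodendrocyte precursor cells (OPCs) derived from neural stem cells of mice on a C57BL6J/129svEmx mixed background, taken on day 4 of monolayer culture. There are 4 groups of 4: cells labelled WT (RXRg+/+) and cells labelled RXRgKO (RXRg-/-, lacking the retinoid X receptor gamma gene Rxrg), each untreated or given the thyroid hormone T3 for 24 h. The labels give neither the T3 dose nor how many mice or cultures stand behind the libraries, so p-values measure the spread between these libraries only.

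PPARs are nuclear receptors that bind fatty acids and their derivatives, pair with an RXR and bind DNA at direct repeats of the hexamer AGGTCA separated by a single base, a spacing called DR1. Thyroid hormone receptors also pair with RXRs, typically on the same hexamer repeated with a wider spacing, DR4. In liver, muscle and heart, PPAR target genes are switched on by fasting and by fatty acids, and they carry fatty acids from uptake to mitochondrial and peroxisomal oxidation. In the oligodendrocyte lineage, fatty acids are also the raw material of myelin, and Ppard has been studied there as a receptor that affects maturation.

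The 16 libraries held 18262279 to 42588442 counts in genes. The targeted gene went against the labels. Rxrg stood at 1.137 to 1.79 CPM (gene counts scaled to library size) in untreated WT-labelled libraries and at 0.371 to 0.960 with T3, whereas RXRgKO-labelled libraries held 3.78 to 4.83 untreated and 4.27 to 5.46 with T3. Counts over the whole gene do not show whether the deleted part is read, so the groups are called WT-labelled and RXRgKO-labelled throughout. Libraries also stood apart within groups. WT-labelled replicate 1 differed from the other 3 replicates in both treatments, and the RXRgKO-labelled libraries split into 4 lacking Xist, the RNA of the inactive X chromosome (untreated replicates 1 and 3, T3 replicates 1 and 2, at 1.39 to 3.75 CPM), and 4 with Xist (543 to 723 CPM). Results that rest on these libraries are given with and without them. The 6 OPC markers were present in all groups and none of them was called in any comparison, while the summed level of 8 mature oligodendrocyte markers ran from 13090 to 17670 CPM in untreated WT-labelled libraries and from 1686 to 2289 CPM in untreated RXRgKO-labelled ones. The RXRgKO-labelled libraries also held more of the mural and mesenchymal markers (292 to 634 CPM untreated, against 74.4 to 84.6) and of the microglial markers (14.02 to 26.01 CPM, against 2.76 to 3.66). In such bulk samples, fewer cells of a type and less RNA per cell cannot be told apart.

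Upstream sequence was taken from RefSeq (GRCm38.p6), which matched 8 of the 9 genes, all but Angptl4. The 250 bases before each RefSeq start were searched on both strands, and distances below are to that start. It can differ from the gene coordinates given below, which come from GENCODE. The windows of Cpt1a and Ppara lie inside those coordinates, and the windows of Ppard, Pdk4, Plin2 and Hadha lie inside them in part. Only 3 of the sequences are shown because Pdk4 and Ehhadh changed with T3 and Plin2, which was not called, holds the DR1-like match. They are given 5′ to 3′ along the gene, up to the first base of the annotated gene where that comes earlier, with matches in capitals: chr6:5496310-5496528 (minus strand) for Pdk4, chr16:21787835-21788084 (minus strand) for Ehhadh and chr4:86670061-86670309 (minus strand) for Plin2.
Pdk4: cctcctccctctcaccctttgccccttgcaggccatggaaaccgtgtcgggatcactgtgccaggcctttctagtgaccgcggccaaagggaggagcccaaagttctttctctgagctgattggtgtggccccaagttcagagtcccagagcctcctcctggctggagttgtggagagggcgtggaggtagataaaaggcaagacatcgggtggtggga
Ehhadh: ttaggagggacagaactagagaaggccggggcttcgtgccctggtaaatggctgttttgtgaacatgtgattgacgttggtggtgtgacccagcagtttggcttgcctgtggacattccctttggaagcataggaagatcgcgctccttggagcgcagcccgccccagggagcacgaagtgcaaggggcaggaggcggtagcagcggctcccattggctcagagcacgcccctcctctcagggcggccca
Plin2: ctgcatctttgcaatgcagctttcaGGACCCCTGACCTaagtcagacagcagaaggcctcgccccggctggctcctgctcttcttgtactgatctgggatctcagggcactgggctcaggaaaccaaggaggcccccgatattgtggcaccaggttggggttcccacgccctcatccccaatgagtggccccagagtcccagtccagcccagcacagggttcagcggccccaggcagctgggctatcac
The searched motifs were the exact hexamer AGGTCA, found in 14% of 32817 promoters of the same length, DR1 (AGGTCANAGGTCA, up to 2 mismatches), found in 3.23%, and DR4 (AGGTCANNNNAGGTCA, up to 2 mismatches), found in 2.57%. A DR1 or DR4 match can contain the exact hexamer, so the counts overlap. Plin2 held the DR1-like stretch AGGTCAGGGGTCC on the opposite strand, 225 to 213 bases before its start. Acadvl held the DR4-like stretch GGATCACCCTAGGTCA on its own strand, 97 to 82 bases before its start. Cpt1a held the hexamer alone on the opposite strand, 94 to 89 bases before its RefSeq start. That window (chr19:3323051-3323300) lies inside the gene as GENCODE places it. Ppara, Ppard, Pdk4, Ehhadh and Hadha held none of the 3 motifs in this window. A match is a description of the letters only.

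The mitochondrial enzymes were the most abundant of the 9 genes. Per kilobase of exon, averaged over the 16 libraries, the level was 32.9 CPM per kb for Acadvl, 23.8 for Hadha, 7.71 for Cpt1a, 4.51 for Plin2, 2.68 for Ppard, 1.99 for Pdk4, 1.53 for Ehhadh, 0.612 for Angptl4 and 0.494 for Ppara. With the longest transcript as the length, Hadha (51.8) came above Acadvl (40.7) and the other ranks stayed. Among genes tested, Acadvl was at the percentile 92.7 of level per length and Ppara at 24.9. The highest library exceeded the lowest by 15.4-fold for Angptl4, 12.8-fold for Ehhadh and 4.15-fold for Pdk4. The ratio was 3.06-fold for Ppard, 2.51-fold for Ppara, the gene with the lowest level, 2.06-fold for Cpt1a, and 1.69-fold for Acadvl, 1.75-fold for Hadha and 1.76-fold for Plin2.

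**Figure D1:**
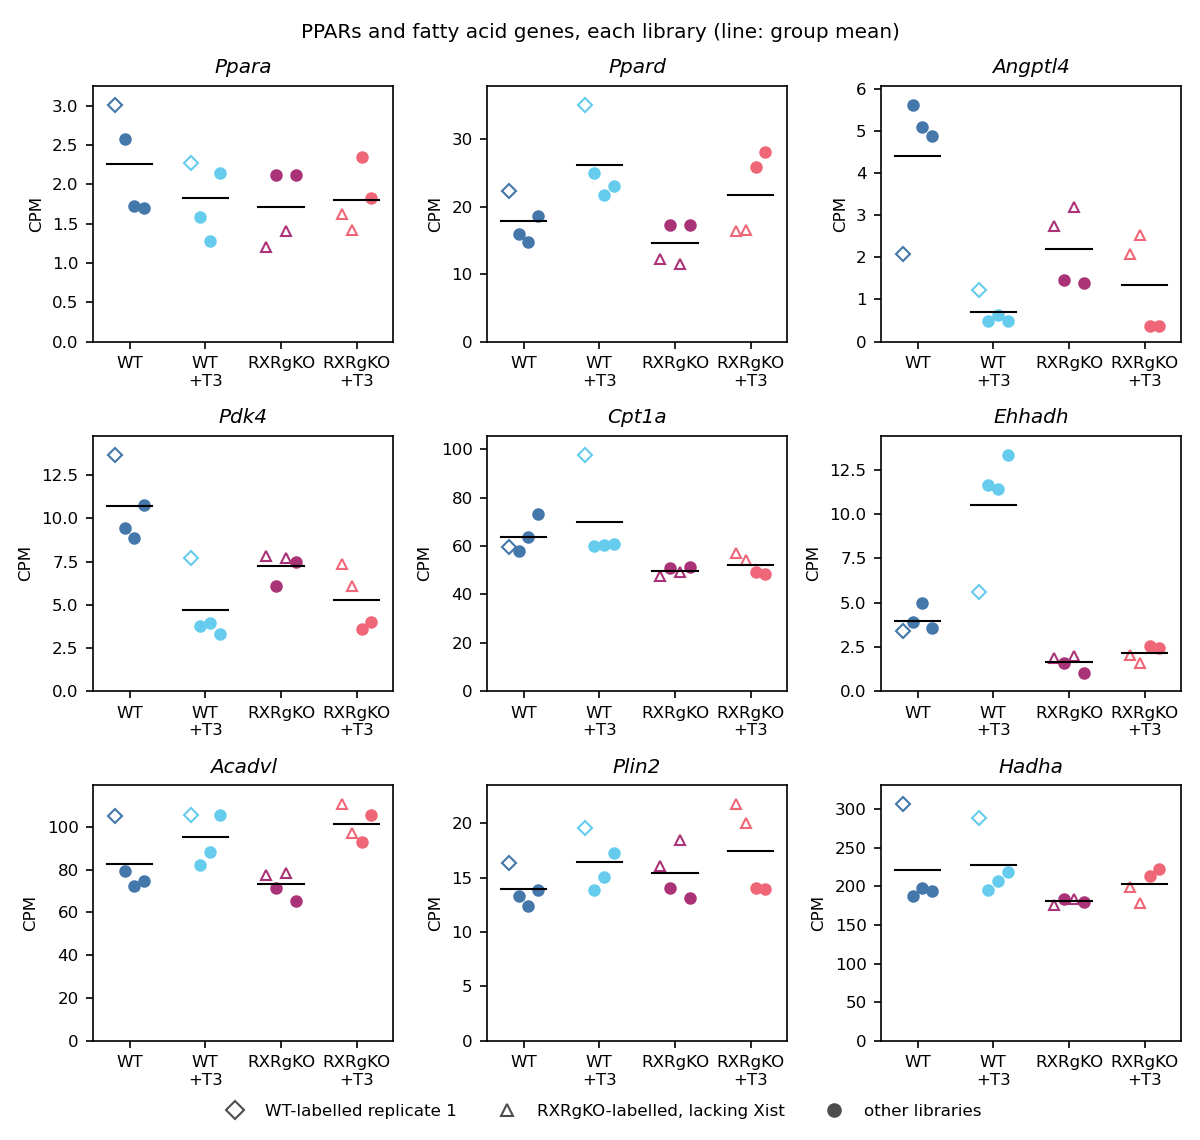
CPM (y axis, from 0) of the 9 genes in each of 16 libraries, by group (x axis); the line is the mean of 4 libraries, diamonds are WT-labelled replicate 1 and triangles the RXRgKO-labelled libraries lacking Xist. Angptl4 and Pdk4 are lower and Ehhadh is higher in all 4 WT-labelled libraries with T3 than in any untreated one, and Ehhadh is lower in all 8 RXRgKO-labelled libraries than in any WT-labelled one.

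Of the 9 genes, 3 were called for T3 in the WT-labelled cells: Angptl4 and Pdk4 fell and Ehhadh rose. Over all genes tested, 8.44% were called in this comparison (4.96% higher and 3.48% lower), and the groups of libraries did not overlap for 15.4%. In the RXRgKO-labelled cells, where 2.81% of genes were called and 13.4% did not overlap (7.87% higher), none of the 9 passed the test (edgeR, adjusted p under 0.05). There 2 were under an unadjusted p of 0.05, beside 15.9% of all genes, DESeq2 called 1 (Acadvl) and limma-voom called 0. The difference between the T3 responses of both labels was called for 0 of the 9 by edgeR, DESeq2 and limma-voom alike. By edgeR 0.0658% of all genes were called. Under an unadjusted p of 0.05 were 2 of the 9 (Ehhadh and Angptl4), beside 5.15% of all genes. In the fit without library sets, responses called under one label and not under the other are therefore not shown to differ. With the library set as a term, edgeR called 5 of the 9 for T3 under the RXRgKO label: Ppard, Angptl4 (log2 fold change -0.95, adjusted p = 0.0481), Pdk4 (-0.52, adjusted p = 0.00602), Acadvl (0.48, adjusted p = 5.13e-05) and Hadha (0.16, adjusted p = 0.0402). That fit also called the difference between the responses for Pdk4. Of 19764 genes, the same fit called 6634 for T3 under the RXRgKO label and 1321 for the difference. Without the set term these were 555 and 13.

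Ppara (ENSMUSG00000022383, GRCm38 chr15:85734983-85802819, plus strand) encodes the receptor that drives the fasting response of liver. Its level was 3.01, 2.58, 1.73 and 1.70 CPM in untreated WT-labelled libraries 1 to 4, 2.28, 1.58, 1.28 and 2.14 CPM with T3, 1.199, 2.12, 1.40 and 2.12 CPM in untreated RXRgKO-labelled libraries and 1.62, 1.42, 2.34 and 1.82 CPM in those with T3. All 4 groups overlapped, on 27 to 90 counts per library. No comparison of Ppara was called, and the log2 fold change was -0.30 (95% interval -0.81 to 0.21) for T3 in WT-labelled cells and 0.09 (-0.42 to 0.60) in RXRgKO-labelled cells.

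Ppard (ENSMUSG00000002250, chr17:28232700-28301474, plus strand) encodes the PPAR found in most tissues. It was at 22.3, 15.9, 14.7 and 18.6 CPM in untreated WT-labelled libraries, 35.1, 25.0, 21.8 and 23.0 CPM with T3, 12.3, 17.3, 11.5 and 17.3 CPM in untreated RXRgKO-labelled libraries and 16.3, 16.6, 25.8 and 28.2 CPM with T3. Replicate 1 was the highest WT-labelled library in both treatments, and the RXRgKO-labelled libraries with Xist were the higher ones, so T3 and untreated groups overlapped under both labels. The log2 fold change for T3 was 0.55 (SE 0.22, adjusted p = 0.139, edgeR) under the WT label and 0.58 (SE 0.22, adjusted p = 0.191) under the RXRgKO label, and neither was called. With the replicate number as a block in the WT-labelled libraries alone, Ppard was called higher (log2 fold change 0.54, adjusted p = 0.00162, edgeR). With the library set as a term it was called higher under both labels (0.54, adjusted p = 8.63e-06, and 0.56, adjusted p = 1.16e-05, edgeR), against the spread within sets only. Within the 4 sets the log2 ratio ran from 0.473 to 0.655. The T3 responses under both labels differed by 0.02 (95% interval -0.58 to 0.63).

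Of the partners and coregulators of these receptors, a list of 12 genes, 1 rose and 1 fell with T3 in WT-labelled cells. None was called in RXRgKO-labelled cells. Of all genes, 4.96% rose and 3.48% fell under the WT label, and 2.81% were called under the RXRgKO label. Nrip1, a corepressor of nuclear receptors, rose from 36.8 ± 3.87 to 60.7 ± 12.2 CPM (SD, n = 4; log2 fold change 0.72, adjusted p = 0.00844, edgeR), and Rxrg itself fell with a log2 fold change of -1.099 (adjusted p = 0.00908, edgeR). Per kilobase, averaged over all libraries, Rxrb was at 11.6 CPM per kb, Rxra at 4.30, Rxrg at 1.24 and Pparg, the PPAR of fat cells, at 0.282.

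Angptl4 (ENSMUSG00000002289, chr17:33773750-33781830, minus strand) encodes a secreted inhibitor of lipoprotein lipase and is a widely used readout of PPAR activity. It was at 2.07, 5.62, 5.10 and 4.88 CPM in untreated WT-labelled libraries and at 1.23, 0.480, 0.640 and 0.495 CPM with T3. The groups did not overlap, although replicate 1 was the lowest untreated and the highest T3 library. Angptl4 fell, with a log2 fold change of -2.58 ± 0.57 (SE; adjusted p = 0.00875, edgeR), on 10 to 39 counts per T3 library. Without replicate 1 of both treatments it fell by 3.26, and within replicate 1 alone the log2 ratio was -0.750. The untreated RXRgKO-labelled libraries held 2.74, 1.46, 3.19 and 1.40 CPM and those with T3 2.09, 2.53, 0.364 and 0.369 CPM. The libraries with Xist were lower than those lacking it in both treatments, and the log2 ratio for T3 was -1.97 among those with Xist and -0.362 among those lacking it. Over all 8, the log2 fold change of -0.81 (SE 0.55, adjusted p = 0.497) was not called, and its difference from the WT-labelled response was 1.78 (95% interval 0.23 to 3.33, unadjusted p = 0.0385, adjusted p = 0.911).

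Pdk4 (ENSMUSG00000019577, chr6:5483351-5496309, minus strand) encodes pyruvate dehydrogenase kinase 4, which shuts the entry of pyruvate into the mitochondrial cycle when fatty acids are burnt. It was at 13.7, 9.42, 8.89 and 10.8 CPM in untreated WT-labelled libraries and at 7.71, 3.79, 3.93 and 3.30 CPM with T3. Every T3 library was below every untreated one, with replicate 1 the highest in both groups, and Pdk4 fell, with a log2 fold change of -1.18 ± 0.27 (SE; adjusted p = 0.0103, edgeR). It fell by 1.41 without replicate 1 of both treatments, and the log2 ratio within replicate 1 was -0.829. In RXRgKO-labelled libraries Pdk4 was at 7.81, 6.09, 7.71 and 7.49 CPM untreated and at 7.39, 6.11, 3.62 and 4.01 CPM with T3. The T3 libraries with Xist were below all others, those lacking Xist were not, and the log2 fold change of -0.47 (SE 0.27, adjusted p = 0.403) was not called. The responses of both labels differed by 0.71 (95% interval -0.03 to 1.45), which was not called. With the library set as a term the same difference of 0.71 was called (adjusted p = 0.0292, edgeR), against the spread within sets only. That fit called 1321 of all genes for this difference. Across the 16 libraries the log2 CPM of Angptl4 and Pdk4 had a Pearson r of 0.857, and 0.953 without the 2 WT-labelled replicates 1; the libraries share group, treatment and library set, so this describes their pattern only. Among 13127 genes, the one most like Angptl4 over the 16 libraries was Nadk2 (r 0.946), and the one most like Pdk4 was Ndrg2 (r 0.944).

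Among 12 tested genes of ketone bodies, the pyruvate gate and uncoupling (Pdk4 included), 5 rose and 2 fell with T3 in WT-labelled cells. None was called in RXRgKO-labelled cells. Of all genes, 4.96% rose and 3.48% fell under the WT label, and 2.81% were called under the RXRgKO label. The list's median log2 fold changes were 0.196 and 0.209, beside -0.0316 and -0.00188 over all genes tested. Pdk3, another pyruvate dehydrogenase kinase, rose from 22.3 ± 5.39 to 46.3 ± 4.55 CPM (log2 fold change 1.05, adjusted p = 0.000366, edgeR), so Pdk3 and Pdk4 moved in opposite directions. Ucp2, Bdh1, Pdp2 and Oxct1, named after their values were seen, were the others that rose. Per kilobase, Pdk3 was at 11.8 CPM per kb over all libraries and Pdk2 at 8.56, against 1.99 for Pdk4.

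Cpt1a (ENSMUSG00000024900, chr19:3322334-3385733, plus strand) encodes the carnitine palmitoyltransferase that admits long-chain fatty acids to mitochondria. It was at 59.8, 58.2, 63.6 and 73.2 CPM in untreated WT-labelled libraries and at 97.9, 59.9, 60.6 and 61.0 CPM with T3. Replicate 1 was the only T3 library above the untreated range, and T3 was not called (log2 fold change 0.13, 95% interval -0.16 to 0.43). RXRgKO-labelled libraries held 47.6, 50.9, 49.2 and 51.5 CPM untreated and, with T3, 57.1, 54.3, 49.2 and 48.3 CPM. All 8 were below all 8 WT-labelled libraries, yet neither comparison of the labels was called (untreated -0.35, SE 0.15, adjusted p = 0.163; with T3 -0.42, SE 0.15, adjusted p = 0.0706, edgeR). Cpt1a was called lower without T3 when WT-labelled replicate 1 of both treatments was left out (-0.37, adjusted p = 0.0202), and with T3 by DESeq2 (-0.44, adjusted p = 0.0275). Of the 7 genes of the carnitine shuttle, Slc22a5, the carnitine transporter, alone was called: it rose with T3 in WT-labelled cells (14.8 ± 0.782 to 25.2 ± 1.56 CPM, log2 fold change 0.77, adjusted p = 0.000539) and was lower under the RXRgKO label untreated (-0.49, adjusted p = 0.0106) and with T3 (-0.98, adjusted p = 2.9e-05). Its untreated difference was not called without the RXRgKO-labelled libraries lacking Xist (-0.33, adjusted p = 0.0700).

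Acadvl (ENSMUSG00000018574, chr11:70010183-70015411, minus strand) encodes the first enzyme of the mitochondrial spiral for very long chains. It overlaps Dvl2 on the opposite strand (31.7 to 49.0 CPM). The strand setting of the counting is not given in the sources used here, so reads of the overlap cannot be assigned with certainty. Acadvl was at 105, 79.2, 72.1 and 74.6 CPM in untreated WT-labelled libraries, 106, 82.3, 88.1 and 105 CPM with T3, 77.3, 71.6, 78.3 and 65.6 CPM in untreated RXRgKO-labelled libraries and 111, 97.1, 93.0 and 106 CPM with T3. Under the RXRgKO label every T3 library was above every untreated one, but the log2 fold change of 0.47 (SE 0.14, adjusted p = 0.0799, edgeR) was not called. It was called by DESeq2 (0.47, adjusted p = 0.0114) and without WT-labelled replicate 1 of both treatments (adjusted p = 0.00974). Under the WT label the log2 fold change was 0.20 (95% interval -0.06 to 0.47) with overlapping groups, and the responses differed by 0.27 (95% interval -0.11 to 0.65).

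Hadha (ENSMUSG00000025745, chr5:30118304-30155162, minus strand) encodes the alpha subunit of the mitochondrial trifunctional protein, which carries out later steps of the same spiral. Hadha overlaps Garem2 on the opposite strand (57.3 to 268 CPM), with the same limit. It was at 306, 188, 197 and 194 CPM in untreated WT-labelled libraries, 288, 195, 207 and 219 CPM with T3, 175, 184, 184 and 180.0 CPM in untreated RXRgKO-labelled libraries and 198, 178, 213 and 223 CPM with T3. WT-labelled replicate 1 was far above the others in both treatments. The untreated RXRgKO-labelled libraries were all below the WT-labelled ones (log2 fold change -0.29, SE 0.16, adjusted p = 0.334), and no comparison was called. Hadhb, the beta subunit of the same enzyme, was at 3.17 CPM per kb over all libraries (2.33 to 4.37), against 23.8 for Hadha (20.1 to 35.1).

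Over the 16 genes of mitochondrial beta-oxidation, 1 rose and 0 fell with T3 in WT-labelled cells, beside 4.96% and 3.48% of all genes. In RXRgKO-labelled cells 0 were called, beside 2.81% of all genes. Under the RXRgKO label all 16 log2 fold changes were above 0, with a median of 0.174 beside -0.00188 over all genes tested; under the WT label 11 were above 0, with a median of 0.129 beside -0.0316. The gene that rose was Hadh, the short-chain hydroxyacyl-CoA dehydrogenase, from 71.8 ± 9.69 to 128 ± 18.7 CPM (log2 fold change 0.83, adjusted p = 0.00786, edgeR). Acaa2, the thiolase of the last step, was higher in RXRgKO-labelled than in WT-labelled cells with T3 (51.6 ± 6.45 against 33.9 ± 5.30 CPM, 0.60, adjusted p = 0.0174). Without WT-labelled replicate 1 of both treatments, Acaa2 also fell with T3 in WT-labelled cells (-0.54, adjusted p = 0.0498, edgeR). In that fit 2 of the 16 genes rose with T3 in RXRgKO-labelled cells, where 1540 of all genes were called. The counts of this list changed with the library sets. With T3, 6 of 16 were higher under the RXRgKO label without the libraries with Xist. In that fit 5955 of all genes were called in this comparison, against 2943 over all libraries. Without the libraries lacking Xist, 0 of the 16 were higher and 2 lower.

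Ehhadh (ENSMUSG00000022853, chr16:21761287-21787807, minus strand) encodes the peroxisomal bifunctional enzyme of beta-oxidation, a target of PPAR alpha in liver. It was at 3.41, 3.93, 4.97 and 3.57 CPM in untreated WT-labelled libraries and at 5.59, 11.6, 11.4 and 13.4 CPM with T3. Replicate 1 was the lowest T3 library but lay above every untreated one. Ehhadh rose, with a log2 fold change of 1.40 ± 0.25 (SE; adjusted p = 0.00202, edgeR), by 1.54 without replicate 1 of both treatments, and by a log2 ratio of 0.712 within replicate 1. RXRgKO-labelled libraries held 1.85, 1.62, 2.00 and 1.04 CPM untreated and, with T3, 2.05, 1.58, 2.52 and 2.46 CPM. The groups overlapped and T3 was not called (log2 fold change 0.43, SE 0.27, adjusted p = 0.457). The log2 ratio was 0.905 among the libraries with Xist and -0.0853 among those lacking it, and the difference between the labels' responses was -0.97 (95% interval -1.69 to -0.24, unadjusted p = 0.0182, adjusted p = 0.691).

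Ehhadh was also the only one of the 9 called between the labels. It was lower in RXRgKO-labelled cells untreated (log2 fold change -1.29, SE 0.27, adjusted p = 0.00359, edgeR) and with T3 (-2.26, SE 0.26, adjusted p = 1.77e-05), and all 8 RXRgKO-labelled libraries were below all 8 WT-labelled ones. Over all genes tested, 11.3% were called untreated (5.16% lower) and 14.9% with T3 (6.8% lower), and 18.7% and 18.1% did not overlap. Untreated, 4 of the 9 genes lay wholly below the WT-labelled range (Ehhadh, Pdk4, Cpt1a and Hadha), against 9.36% of all genes, and with T3 2 did (Ehhadh and Cpt1a), against 8.91%. The comparisons with and without T3 use different libraries of each label, but the T3 and label comparisons share them.

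Mature oligodendrocyte markers also differed in these comparisons. Of the 8 markers, 5 rose with T3 in WT-labelled cells (4.96% of all genes) and 6 in RXRgKO-labelled cells (2.81% of all genes called). Under the RXRgKO label 8 of the markers were lower untreated (5.16% of all genes) and 7 with T3 (6.8%). Their summed level was 19420 to 29680 CPM in WT-labelled libraries with T3 and 3150 to 5125 CPM in RXRgKO-labelled libraries with T3, with WT-labelled replicate 1 the lowest of its T3 group at 19420 CPM, and none of the 8 was at 0 in any library. Per 10000 CPM of these markers, Ehhadh was at 1.93 to 3.65 CPM and 2.88 to 4.50 CPM in WT-labelled libraries without and with T3, and at 5.27 to 9.97 CPM and 4.80 to 6.51 CPM in RXRgKO-labelled ones. Relative to the markers, Ehhadh was thus higher under the RXRgKO label in every library. Untreated WT-labelled replicate 1 had the highest marker sum of its group (17670 CPM) and the lowest Ehhadh (3.41 CPM). Among RXRgKO-labelled libraries lacking Xist, the sum was 2006 to 2289 CPM without T3, against 3150 to 3162 CPM in the T3 libraries, while the log2 ratio of Ehhadh was -0.0853. The genes most like Ehhadh over the 16 libraries were Tmem98 (r 0.983), which encodes a membrane protein of oligodendrocytes, and Enoph1 (r 0.977). The part of the markers in the Ehhadh differences was not tested.

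**Figure D2:**
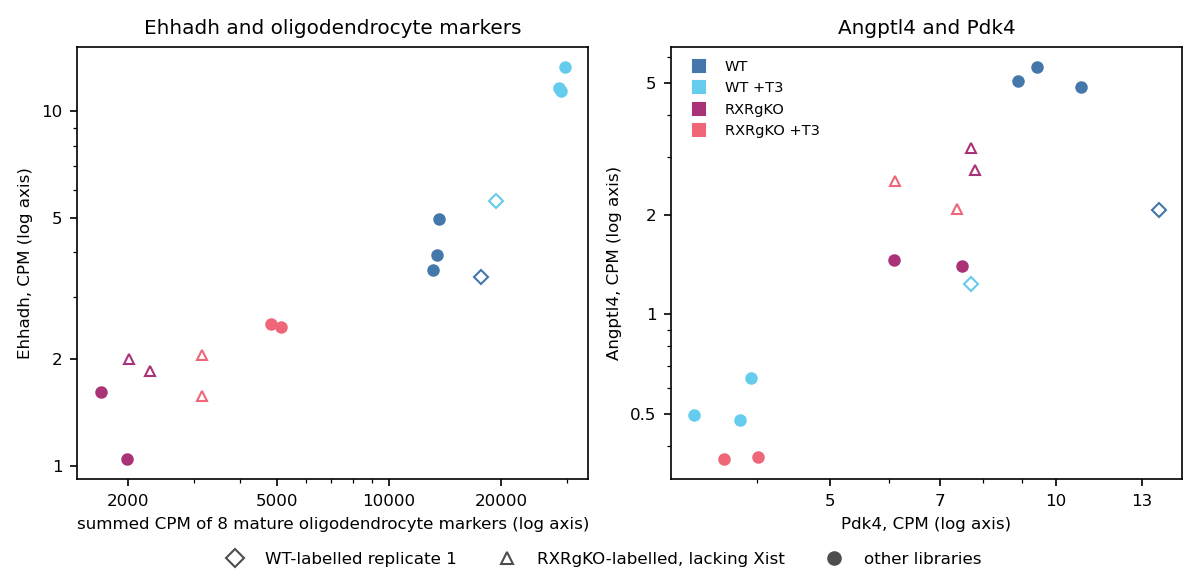
Left, Ehhadh against the summed CPM of 8 mature oligodendrocyte markers; right, Angptl4 against Pdk4; each point is a library, all axes are logarithmic CPM, colours are groups and symbols mark WT-labelled replicate 1 and RXRgKO-labelled libraries lacking Xist. Ehhadh and the marker sum are highest in WT-labelled T3 replicates 2 to 4 (11.4 to 13.4 CPM), and Angptl4 and Pdk4 are lowest in those libraries and in the RXRgKO-labelled T3 libraries with Xist.

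Of 16 peroxisomal genes tested, 2 rose with T3 in WT-labelled cells (Ehhadh and Scp2) and 1 in RXRgKO-labelled cells (Scp2). Of all genes, 4.96% were called higher in the former, and 2.81% were called in the latter. Under the RXRgKO label 3 of the 16 were lower untreated and 1 with T3, beside 5.16% and 6.8% of all genes. Without the libraries with Xist, 5 were lower untreated and 5 with T3. In those fits 4518 and 5955 of all genes were called between the labels, against 2240 and 2943. Scp2, which encodes the sterol carrier thiolase, rose from 59.7 ± 11.5 to 87.5 ± 6.66 CPM in WT-labelled cells (log2 fold change 0.55, adjusted p = 0.0220, edgeR) and from 44.0 ± 5.62 to 67.0 ± 7.39 CPM in RXRgKO-labelled cells (0.61, adjusted p = 0.0287). Without the RXRgKO-labelled libraries with Xist, 0 of the 16 genes, Scp2 included, were called for T3 under that label. Acaa1a, the peroxisomal thiolase, and Abcd2, a transporter of very long-chain fatty acids, were lower in untreated RXRgKO-labelled cells by 0.36 and 0.45 on the log2 scale (adjusted p = 0.0406 and 0.0411). Acaa1a was not called without WT-labelled replicate 1 of both treatments (-0.26, adjusted p = 0.0737) or without the libraries lacking Xist (-0.39, adjusted p = 0.0698), nor Abcd2 without the libraries with Xist (-0.45, adjusted p = 0.0677). Hsd17b4, the other bifunctional enzyme of the pathway, was at 46.3 CPM per kb over all libraries, against 1.53 for Ehhadh.

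Plin2 (ENSMUSG00000028494, chr4:86648386-86670060, minus strand) encodes a protein that coats lipid droplets. It was at 16.3, 13.4, 12.4 and 13.8 CPM in untreated WT-labelled libraries, 19.6, 13.9, 15.1 and 17.3 CPM with T3, 16.1, 14.02, 18.5 and 13.1 CPM in untreated RXRgKO-labelled libraries and 21.8, 20, 14.02 and 13.9 CPM with T3. All groups overlapped, the RXRgKO-labelled libraries lacking Xist were the higher ones of their group, and no comparison was called (largest log2 fold change 0.24, 95% interval -0.10 to 0.57, for T3 under the WT label). Of 12 tested genes of lipid droplets and lipolysis, 0 rose and 2 fell with T3 in WT-labelled cells, beside 4.96% and 3.48% of all genes. The counts were 1 and 1 without WT-labelled replicate 1 of both treatments. Plin1, a droplet coat of fat cells, was 1 of the 2 that fell over all libraries. It was at 0.619 ± 0.180 and 0.204 ± 0.0462 CPM (log2 fold change -1.60, adjusted p = 0.0361, edgeR). Plin1 was not called without WT-labelled replicate 1 of both treatments (-1.33, adjusted p = 0.120). Cidea was the other, with overlapping libraries (3.72 ± 4.21 and 0.602 ± 0.640 CPM, -2.53, adjusted p = 0.0395). G0s2, an inhibitor of the lipase that empties droplets, was higher under the RXRgKO label untreated (22.4 ± 5.80 against 12.1 ± 1.64 CPM, 0.89, adjusted p = 0.0111) and with T3 (0.94, adjusted p = 0.00689). It was not called in either without the libraries lacking Xist (0.58, adjusted p = 0.0769, and 0.52, adjusted p = 0.0967).

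Of 15 tested genes of fatty acid uptake, binding and activation (Angptl4 included), 5 were higher and 1 lower under the RXRgKO label without T3. The same counts held with T3, with 9 not called each time, beside 11.3% and 14.9% of all genes called. For T3 in WT-labelled cells 1 rose and 2 fell, beside 4.96% and 3.48% of all genes. Without WT-labelled replicate 1 of both treatments these counts were 3 and 3. Lpl, the lipoprotein lipase that Angptl4 inhibits, was at 7.13 ± 1.29 CPM in RXRgKO-labelled and 2.99 ± 0.531 CPM in WT-labelled untreated cells (log2 fold change 1.25, adjusted p = 0.00896, edgeR), and was also higher with T3 (1.43, adjusted p = 0.00276). Cd36, a fatty acid receptor of macrophages, endothelium and other cells, was at 13.6 ± 2.20 and 4.47 ± 1.78 CPM untreated (1.61, adjusted p = 0.00474) and higher with T3 as well (1.54, adjusted p = 0.00626). Acsl1, a long-chain acyl-CoA synthetase, was lower under the RXRgKO label (-1.11, adjusted p = 0.00751 untreated; -1.34, adjusted p = 0.00151 with T3) and rose with T3 in WT-labelled cells (0.92, adjusted p = 0.0300). With T3, leaving out the libraries lacking Xist lowered the count from 5 higher to 1, and Lpl (0.75, adjusted p = 0.0625) and Cd36 (0.99, adjusted p = 0.141) were no longer called. Fabp3, a fatty acid carrier named after its values were seen, was the gene beside Angptl4 that fell with T3 in WT-labelled cells (1.28 ± 0.424 to 0.463 ± 0.194 CPM, -1.48, adjusted p = 0.0275). The microglial, endothelial, mural and mesenchymal markers were higher in the same RXRgKO-labelled libraries (7 of 8, 3 of 4 tested and 6 of 8 markers called untreated), and their part in these differences was not tested.

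**Figure D3:**
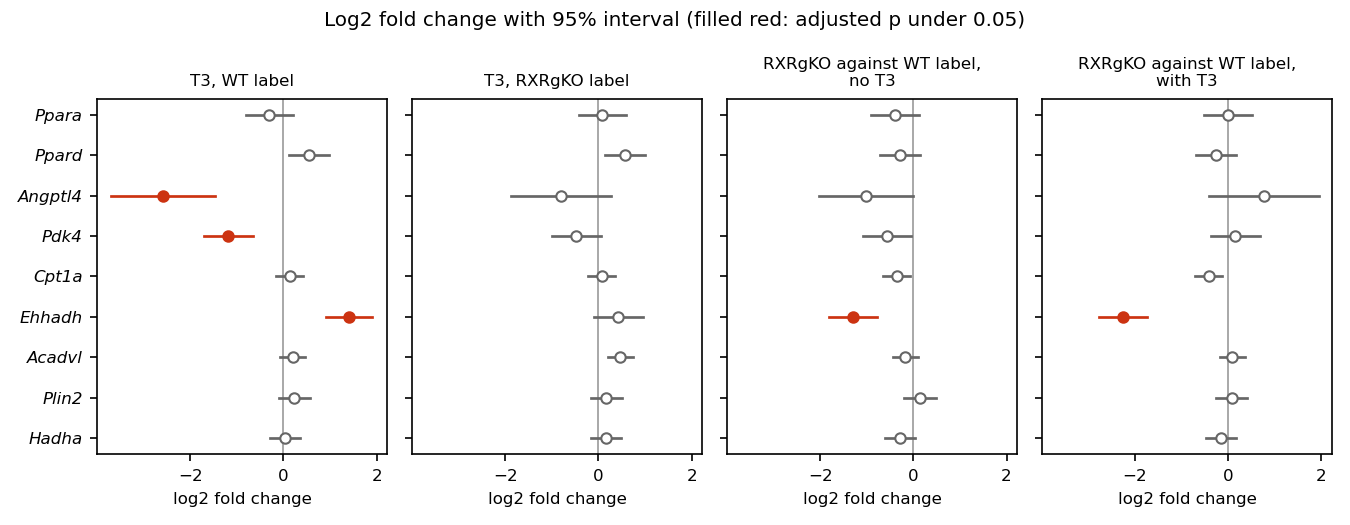
Log2 fold change (x axis) with its 95% interval for each of the 9 genes (y axis) in 4 comparisons; filled red points passed adjusted p under 0.05 in edgeR. Angptl4 (-2.58), Pdk4 (-1.18) and Ehhadh (1.40) are called for T3 under the WT label, Ehhadh alone between the labels (-1.29 and -2.26), and none for T3 under the RXRgKO label.

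The genes of fatty acid synthesis are the opposite arm of this metabolism. Of 16, 3 rose and 0 fell with T3 in WT-labelled cells, beside 4.96% and 3.48% of all genes. Of the 16 log2 fold changes 14 were above 0, with a median of 0.45 beside -0.0316 over all genes. When WT-labelled replicate 1 of both treatments was left out, 6 rose. Elovl7, a fatty acid elongase, rose from 168 ± 43.3 to 280.4 ± 7.83 CPM in WT-labelled cells (log2 fold change 0.74, adjusted p = 0.00539, edgeR) and from 58.2 ± 3.60 to 108 ± 13.7 CPM in RXRgKO-labelled cells (0.89, adjusted p = 0.00300). Without the RXRgKO-labelled libraries with Xist, 0 of the 16 genes, Elovl7 included, were called for T3 under that label. Elovl7 was lower under the RXRgKO label with and without T3 (-1.38 and -1.53, adjusted p = 1.24e-05 and 5.71e-06). Scd1, a desaturase, rose in WT-labelled cells although its libraries overlapped (480.1 ± 151 to 895 ± 449 CPM, 0.90, adjusted p = 0.0482).

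Another 3 lists were set beside these because Angptl4 and Pdk4 also respond to other signals in other cells. Of 8 T3-responsive genes, 5 rose in WT-labelled and 5 in RXRgKO-labelled cells, among them Hr (36.9 ± 16.5 to 210.1 ± 55.2 CPM, log2 fold change 2.51, adjusted p = 8.29e-05, and 13.4 ± 2.54 to 124 ± 47.3 CPM, 3.21, adjusted p = 1.86e-05, edgeR). Of 16 hypoxia-responsive genes, 4 rose in WT-labelled and 2 in RXRgKO-labelled cells and 0 fell (7 rose and 1 fell in WT-labelled cells without replicate 1 of both treatments), with Egln3 at 12.1 ± 0.607 and 28.9 ± 3.70 CPM in WT-labelled cells (1.26, adjusted p = 5.66e-05). In RXRgKO-labelled cells 0 were called without the libraries with Xist. In WT-labelled cells 11 of the 16 log2 fold changes were above 0, with a median of 0.453 beside -0.0316 over all genes tested. Of 9 glucocorticoid-responsive genes, 3 rose in WT-labelled and 1 in RXRgKO-labelled cells and 0 fell (1 rose in WT-labelled cells without replicate 1 of both treatments), with Cebpd at 5.93 ± 1.64 and 28.1 ± 3.54 CPM (2.24, adjusted p = 0.000170). In WT-labelled cells 6 of the 9 log2 fold changes were above 0, with a median of 0.0727, and Fkbp5 was at 31.2 ± 7.64 and 32.8 ± 3.49 CPM. Over all genes tested, 4.96% were called higher with T3 in WT-labelled cells, and 2.81% were called in RXRgKO-labelled cells. The part of either signal in the fall of Angptl4 and Pdk4 was not tested.

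**Figure D4:**
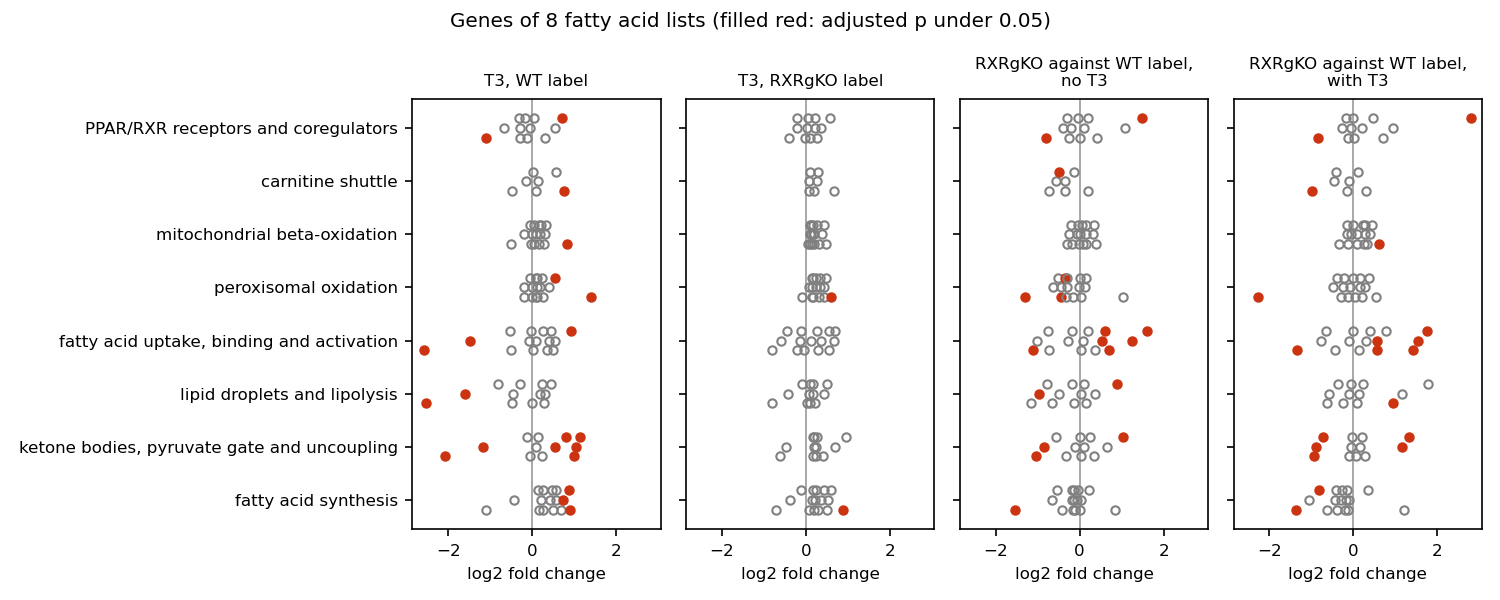
Log2 fold change (x axis) of each tested gene of 8 fatty acid lists (rows) in 4 comparisons; filled red points passed adjusted p under 0.05 in edgeR and vertical offsets within a row only separate points. T3 under the WT label calls genes in both directions in the ketone, pyruvate and uncoupling list (5 higher, 2 lower), and in RXRgKO-labelled cells T3 calls 1 gene each in the peroxisomal and synthesis lists and 0 in the other 6.

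Within library sets, Angptl4 and Pdk4 had log2 ratios below 0 in all 4 sets (from -3.27 to -0.362 and from -1.40 to -0.201), and Ppard, Acadvl and Plin2 had ratios above 0 in all 4 (Acadvl from 0.00528 to 0.534, Plin2 from 0.0436 to 0.270). Ehhadh was above 0 in 3 sets and below it in the RXRgKO-labelled libraries lacking Xist. The ratio also changed sign between sets for Ppara (from -0.403 to 0.226), Cpt1a (from -0.103 to 0.712) and Hadha (from -0.0873 to 0.259). For Angptl4, Pdk4 and Ehhadh the set with the largest size under each label was WT-labelled replicates 2 to 4 and the RXRgKO-labelled libraries with Xist. Each of these sets holds 1 to 3 libraries per treatment, and no test was run within single sets.

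**Figure D5:**
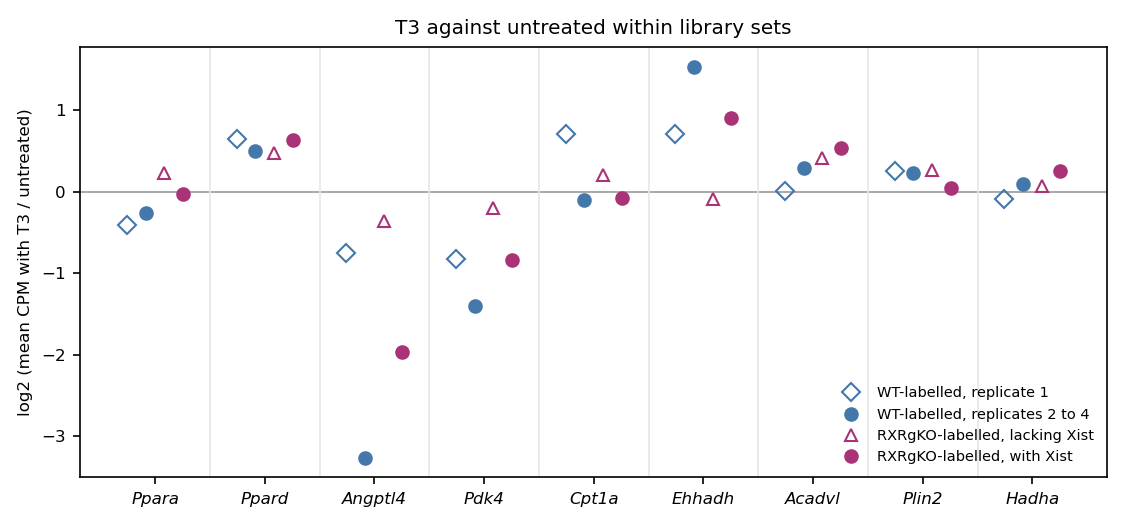
Log2 ratio of mean CPM with T3 over untreated (y axis) for the 9 genes (x axis) within 4 sets of libraries, WT-labelled replicate 1, WT-labelled replicates 2 to 4, and RXRgKO-labelled libraries lacking or holding Xist. Angptl4 ranges from -3.27 to -0.362 and Ppard from 0.473 to 0.655.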

How the data were processed

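RNA was measured in 16 poly-A selected, stranded libraries of mouse OPC cultures in 4 groups of 4. The authors deposited raw counts per Ensembl gene, made on mm10 with HTSeq 0.6.1p1, STAR 2.5.3a and bcl2fastq 2.17.1.14, per the submitters' processing notes. For the counting, the strand setting and the annotation used are not given in the sources. Of the reads in the tables, 39.6 to 55.0% were not uniquely placed and 11.5 to 23.5% fell in no gene; these rows stayed out of library sizes. Depth was 18262279 to 42588442 gene counts, and nothing was left out beyond these rows and the filter.

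Gene names, places and lengths come from GENCODE M21. Counts were tested with edgeR 4.0.16 (TMM, filterByExpr, robust quasi-likelihood test over all 16 libraries, R 4.3.3), with Benjamini-Hochberg adjustment over 19764 genes and a call at 0.05. CPM were scaled with TMM factors and their log2 taken with a prior count of 2. Dividing a log2 fold change by the square root of its F gave the SE. Alternatives were DESeq2 1.42.0, limma 3.58.1 (voom), other scalings and filters, the replicate block, the library set as a term, and leaving out libraries. The code was tested on simulated data.

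All members were named. From each list, up to 4 called genes with the smallest adjusted p over 5 comparisons were named, and for each member called the 2 genes most like it with a mean of at least 1 CPM. A few genes that these rules name are not reported here. The members and lists were chosen with earlier results of these data known. Replicate numbers, taken from the titles, entered the replicate block only, which was an alternative, and the main tests used no pairs. Deviations of same-numbered WT-labelled libraries from their group means correlated between treatments at 0.648, 0.247, 0.211 and 0.164. RXRgKO-labelled ones gave 0.543, -0.629, -0.697 and 0.600. Untreated WT-labelled replicates 2 and 4 were most like T3 replicates 3 and 2, so the numbers are not shown to pair cultures.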

Additional observations from a re-analysis of the deposited data

Results flagged for a closer look

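In WT-labelled libraries with T3, replicate 1 lay far from the other 3 replicates for Pdk4, at 7.71 CPM against 3.30 to 3.93, and for Cpt1a, at 97.9 CPM against 59.9 to 61.0. In untreated WT-labelled libraries, replicate 1 did so for Hadha, at 306 CPM against 188 to 197. These were 3 of 36 groups of libraries checked (9 genes in 4 groups) with Dixon's test at the 95% level, which flags about 5% of groups by chance. All 3 concern WT-labelled replicate 1, which stands apart from its group across genes. Its summed level of astrocyte markers was 8754 CPM untreated, against 3455 to 3634 CPM in the other 3 replicates, and 15690 CPM with T3, against 5073 to 6101 CPM. Among RXRgKO-labelled libraries, those lacking Xist had OPC marker sums of 1483 to 1760 CPM when untreated, against 3098 to 3109 CPM in those with Xist. After T3 the sums were 1280 to 1308 CPM and 2610 to 2789 CPM. The part of these markers in the values of the 9 genes was not tested.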

How the results depend on the processing

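The calls of Angptl4, Pdk4 and Ehhadh for T3 under the WT label and both calls of Ehhadh between the labels held, with their direction, in every alternative run. Over all 9 genes and 5 comparisons, 1143 alternative values kept direction and side of the threshold, 26 newly passed it and 55 changed sign without a call.

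Members called for T3 under the WT label (3) became 6 with library set in the model and stayed 3 without any single library. For T3 under the RXRgKO label (0) they became 1 with DESeq2, 5 with library set in the model, 1 without WT-labelled replicate 1 of both treatments, and 0 to 1 without single libraries. Between the labels untreated (1) they became 3 with the set term, 2 with only the groups compared, 2 when WT-labelled replicate 1, the libraries lacking Xist or those with Xist were left out, and 1 to 2 without single libraries. With T3 (1) they became 2 with DESeq2, 2 with the set term and 3 without the libraries with Xist, and stayed 1 without single libraries. For comparisons between the labels, the set term sets WT-labelled replicates 2 to 4 against the RXRgKO-labelled libraries with Xist, so these counts depend on which set is the reference. All counts with the set term, here and below, rest on the spread within sets. For the difference of responses (0) the set term called 1, Pdk4 (0.71, adjusted p = 0.0292), and leaving out single libraries 0.

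Genes called for T3 under the WT label (1668) were 7599 with the set term, 5084 with the replicate block in that label's libraries, 2688, 2800 and 2626 without WT-labelled replicate 1, the libraries lacking Xist and those with Xist, and 997 to 2475 without single libraries (997, 998 and 1009 without untreated replicates 2, 3 and 4). Under the RXRgKO label (555) they were 1194 with DESeq2, 6634 with the set term, 142 with the replicate block in that label's libraries, 1540 without WT-labelled replicate 1, 129 without the libraries with Xist and 253 to 779 without single libraries. Between the labels they were 8692 (set term), 4518 (without the libraries with Xist) and 1712 to 2478 (single libraries) untreated, against 2240, and 9943, 5955 and 2178 to 3307 with T3, against 2943. For the difference (13) they were 112 with DESeq2, 20 with a filter of 1 CPM in 4 libraries, 4 with the replicate block, 1321 with the set term, 118 without WT-labelled replicate 1, 26 without the libraries lacking Xist and 3 to 49 without single libraries. The cause was not tested.

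The replicate block changed no other call of the 9 genes than that of Ppard. With the longest transcript as the length, levels were 5.40 CPM per kb for Ppard, 13.6 for Cpt1a, 40.7 for Acadvl, 8.38 for Plin2 and 51.8 for Hadha. Angptl4 between the labels with T3 was 0.77 over all libraries, -1.03 without the libraries lacking Xist and 1.57 (called, adjusted p = 0.0145) without those with Xist. Untreated, it was called lower without the libraries lacking Xist (-1.63, adjusted p = 0.0227). Ppard was called lower under the RXRgKO label without the libraries with Xist, both untreated (-0.66, adjusted p = 0.0323) and with T3 (-0.74, adjusted p = 0.0139). Depth limits Angptl4, Ppara and Ehhadh most, at 10 to 133, 27 to 90 and 30 to 324 counts per library.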
